A study of Homo sapiens with 4 samples.

Results

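The genes described here are 38 genes of DNA repair and homologous recombination, chosen by name for their role in the DNA damage response, out of 60708 genes in a TT-seq count table. Many of them are long genes whose transcripts are known to depend on the kinase CDK12 and on the suppression of poly(A) sites in introns. The choice used no measured value, though earlier results of these data were known when it was made. TT-seq labels RNA in living cells with 4-thiouridine for a short time and sequences the labeled fragments, so that introns are read along with exons and a count follows RNA made during the labeling.

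There were 4 libraries in 2 groups of 2. All came from HEK293, a human embryonic kidney cell line, in which the endogenous RPB1, the largest subunit of RNA polymerase II, is fused to a degron, through which auxin makes the cell destroy the protein. A plasmid for RPB1 with a carboxy-terminal domain (CTD) of 52 repeats was introduced by transient transfection, either with the wild-type CTD (52X WT) or with threonine 4 replaced by alanine in each repeat (52X T4A). Auxin was added at 48 h and kept for another 48 h in both groups, and the 4-thiouridine label was applied for 20 min. Both groups therefore carried the degron, the plasmid and auxin, and both depended on a transfected RPB1 whose level may vary from cell to cell. In such bulk samples, fewer cells that transcribe a gene and less RNA made per cell cannot be told apart. The labels do not say whether the replicates were separate cultures, so the spread between them, and every p-value, may be technical.

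DNA repair genes encode proteins that sense, process and mend damaged DNA. Double-strand breaks are recognized by the MRE11 complex and the kinases ATM and ATR, and are then either rejoined directly by non-homologous end joining or repaired from a sister copy by homologous recombination. In the latter, BRCA1 and its partners promote resection of the ends, and BRCA2, PALB2 and the BCDX2 complex (RAD51B, RAD51C, RAD51D and XRCC2) act in the strand exchange that follows. The Fanconi anemia proteins clear interstrand crosslinks, and the mismatch repair proteins correct replication errors. CDK12 with its cyclin CCNK phosphorylates the CTD, and loss of CDK12 is known to lower expression of long genes of homologous recombination.

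The libraries held 39249066 and 45605027 counts in 52X WT and 33853507 and 33188536 in 52X T4A, and the 38 genes took between 0.520% and 0.553% of each library. Replicates correlated at 0.991 in 52X WT and 0.979 in 52X T4A on the log2 CPM scale over the 23321 genes tested. Of the HEK293 markers, NEFL (1887 to 3376 counts) and EYA1 (1872 to 2699) were well represented, LHX1 (106 to 152) and PAX2 (80 to 96) less so, and NEFM, with 0 to 6 counts, was at or near 0. Markers of other cell types were near 0, with at most 38 counts for ALB, 28 for PTPRC, 22 for COL3A1 and 8 for SFTPC in any library. PECAM1, a marker of endothelium that was also planned, has no value here. Reads of POLR2A, the gene for RPB1, include RNA from the plasmid and stood at 9640 and 8720 TMM-scaled CPM (normalized counts relative to library size) in 52X WT and 7492 and 8083 in 52X T4A, a log2 fold change of -0.24 (SE 0.25, adjusted p = 0.659). Counts of POLR2A do not separate the mutant from the wild-type sequence, so they give no check of the labels.

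Of the 38 genes, 36 passed the filter on low counts, with 350 to 20947 counts in a library. None of the 36 passed the test of 52X T4A against 52X WT at an adjusted p below 0.05 (quasi-likelihood test of edgeR, Benjamini-Hochberg adjustment over all genes tested), and the lowest adjusted p was 0.173, for RAD51B. The background was low as well, since 1 of the 23321 tested genes, 0.00429%, passed. Without adjustment, 6 genes lay lower in 52X T4A at p below 0.05 (RAD51B, XRCC2, RAD51C, ATR, XRCC4 and CHEK2) and 0 lay higher, where 8.02% of all tested genes lay lower and 7.45% higher. DESeq2, run as an alternative, called 2 of the genes at its adjusted threshold, RAD51B and XRCC2, and 3.72% of all tested genes.

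The fitted differences were small and mostly on the lower side. The log2 fold change was below 0 for 28 genes and above 0 for 8, against 50.1% below 0 over all genes tested and 56.6% over protein-coding genes. The median was -0.10 (interquartile range -0.18 to -0.00), beside a median of -0.00076 over all tested genes and -0.04 over the 15329 protein-coding genes tested. Both 52X T4A libraries lay below both 52X WT libraries for 17 genes (47.2%), above both for 2 (5.56%), and the groups overlapped for the other 17. Over all tested genes these shares were 24.7% and 24.8%, and over protein-coding genes 29.2% and 21.3%.

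The spread between replicates was of the size of this median. Set against the mean of 52X WT, the median of the 36 genes was -0.05 in 52X WT replicate 1 and 0.05 in replicate 2, and -0.07 and -0.14 in the 52X T4A replicates. The genes also moved together between libraries of 1 group: 28 of the 36 were lower in 52X WT replicate 1 than in replicate 2, against 48.4% of all tested genes, and 32 were lower in 52X T4A replicate 2 than in replicate 1, against 58.3%. The part of such shared differences between replicates in the difference between the groups was not tested.

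**Figure D1:**
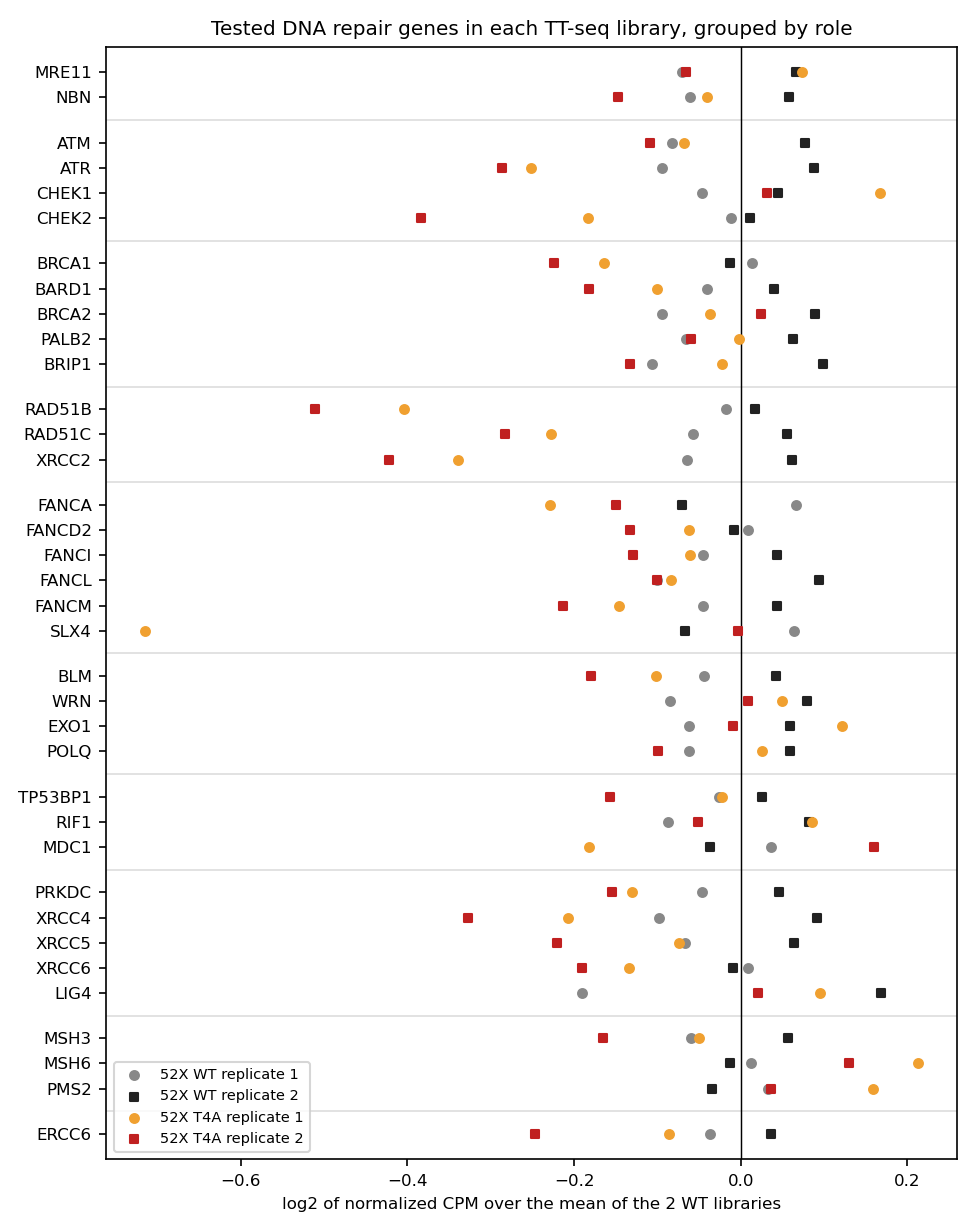
Level of each of the 36 tested DNA repair genes in each library as log2 of its TMM-scaled CPM over the mean of the 52X WT libraries, grouped by role. RAD51B, XRCC2 and RAD51C of the BCDX2 complex have both 52X T4A libraries below both 52X WT libraries, MSH6 and PMS2 have both above, and for many genes the points of the groups overlap.

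Genes of the BCDX2 complex, which acts in homologous recombination, held the 2 lowest fold changes of the list. RAD51B (chr14:67819779-68730218, plus strand, the longest gene here at 910 kb) had 7944 and 9170 counts in 52X WT and 5214 and 4985 in 52X T4A, or 203.0 and 208.0 CPM against 155.3 and 144.2. Both 52X T4A libraries were thus below both 52X WT libraries, and the gap between the groups was wider than the gap within either. The group means were 205 ± 3.58 CPM and 150 ± 7.88 CPM (SD, n = 2 each), 27.1% lower in 52X T4A, with a log2 fold change of -0.46 (SE 0.09, adjusted p = 0.173). XRCC2 (chr7:152644776-152676141, minus strand) is a short gene of 31.4 kb and had the next lowest value. Its counts were 3377 and 4150 in 52X WT and 2394 and 2329 in 52X T4A, or 86.3 and 94.1 CPM against 71.3 and 67.4, a log2 fold change of -0.38 (SE 0.09, adjusted p = 0.193). RAD51C (chr17:58692573-58735611, plus strand, 43.0 kb) had 3525 and 4292 counts in 52X WT and 2687 and 2664 in 52X T4A, with 93.7 ± 5.17 and 78.5 ± 2.12 CPM and a log2 fold change of -0.25 (SE 0.09, adjusted p = 0.256). In none of these 3 genes did the groups overlap, beside 29.2% of tested protein-coding genes that lay lower with no overlap. Leaving out any 1 library kept the log2 fold change of RAD51B between -0.50 and -0.42 and that of XRCC2 between -0.45 and -0.34. RAD51B passed the adjusted threshold without 52X T4A replicate 1 (adjusted p = 0.0339) and without 52X T4A replicate 2 (0.00657), XRCC2 only without the latter (0.0365). Of all genes tested in these fits, 1.36% and 13.8% passed.

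The remaining gene of the BCDX2 complex, RAD51D (chr17:35092221-35121522, minus strand), and RAD50 of the MRE11 complex (chr5:132556019-132646349, plus strand) could not be measured. RAD51D had 0, 0, 1 and 0 counts, and RAD50 had 13 and 12 counts in 52X WT and 7 and 7 in 52X T4A. Another listed gene of the same strand covers 99.9% of RAD51D and 99.7% of RAD50, and all 9293 genes of the table that lie wholly inside other genes of their strand are listed at 0 in every library, against 27.0% of the genes that share no base with one. Reads over genes that share a strand were thus not counted, and the counts of RAD50 and RAD51D are no measure of their transcription. Of the 38 genes, 33 shared under 1% of their span with another gene of their strand. BRCA1 shared 17.4% of its span.

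Among the kinases that signal damage, ATR and CHEK2 lay lower in 52X T4A, and ATM and CHEK1 overlapped between the groups. ATR (chr3:142449007-142578733, minus strand), the kinase that answers single-stranded DNA at stalled forks, read 191.7 and 217.5 CPM in 52X WT and 171.9 and 167.7 in 52X T4A. Its log2 fold change was -0.27 (SE 0.10, adjusted p = 0.270). CHEK2 (chr22:28687743-28742422, minus strand), a checkpoint kinase activated by ATM, read 29.0 and 29.5 CPM against 25.8 and 22.4, a log2 fold change of -0.28 (SE 0.12, adjusted p = 0.318). ATM, a gene of 146 kb, gave -0.09 (SE 0.09), and CHEK1, which acts below ATR, gave 0.10 (SE 0.09). The measured members of the MRE11 complex also overlapped between the groups. MRE11, its nuclease, read 154.8 and 170.2 CPM in 52X WT and 170.9 and 155.3 in 52X T4A, and NBN, which recruits ATM, gave a log2 fold change of -0.09 (SE 0.09).

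All 5 genes of the BRCA1 and BRCA2 complexes had a log2 fold change below 0, with a median of -0.08, and 2 of them had no overlap between the groups. Of tested protein-coding genes, 56.6% were below 0 and 29.2% lay lower with no overlap. BRCA1 (chr17:43044295-43170245, minus strand), a ubiquitin ligase that promotes resection, read 125.3 and 123.1 CPM in 52X WT and 110.8 and 106.4 in 52X T4A. That is 12.5% lower, a log2 fold change of -0.19 (SE 0.08, adjusted p = 0.323). BARD1, its partner in the ligase, read 171.5 and 181.4 CPM against 164.6 and 155.5, a log2 fold change of -0.14 (SE 0.09, adjusted p = 0.466). BRCA2, a mediator of homologous recombination, was level between the groups at 129 ± 11.6 and 129 ± 3.84 CPM, and PALB2, which links BRCA1 to BRCA2, gave -0.03 (SE 0.09). BRIP1, a helicase that binds BRCA1, has 184 kb and gave -0.08 (SE 0.11).

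The 6 genes of the Fanconi anemia pathway were all below 0 as well, with a median of -0.14, and 4 of them (FANCA, FANCD2, FANCI and FANCM) did not overlap between the groups. Among tested protein-coding genes the shares were 56.6% below 0 and 29.2% lower with no overlap. FANCA, a subunit of the core complex, read 123.8 and 112.6 CPM in 52X WT and 100.9 and 106.5 in 52X T4A (log2 fold change -0.19, SE 0.09, adjusted p = 0.362). The core complex ubiquitinates FANCD2 and FANCI, which gave -0.10 (SE 0.08) and -0.09 (SE 0.09). FANCM, a translocase, gave -0.18 (SE 0.09), and FANCL, the ligase subunit, -0.09 (SE 0.10). SLX4, a scaffold for nucleases, had the lowest fitted value of this group, -0.32, with a wide error (SE 0.22, adjusted p = 0.501). Its counts were 700 and 720 in 52X WT and 350 and 590 in 52X T4A, or 17.9 and 16.3 CPM against 10.4 and 17.1, so that the value rests on 52X T4A replicate 1. Without that library the log2 fold change of SLX4 was 0.0046, and without 52X T4A replicate 2 it was -0.73.

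In non-homologous end joining, 4 of 5 genes had both 52X T4A libraries below both 52X WT libraries, as had 29.2% of tested protein-coding genes. XRCC4 (chr5:83077498-83353787, plus strand, 276 kb), the partner of the ligase LIG4, read 124.8 and 142.3 CPM in 52X WT and 115.7 and 106.5 in 52X T4A, a log2 fold change of -0.27 (SE 0.10, adjusted p = 0.278). PRKDC, the catalytic subunit of DNA-PK, read 410.0 and 437.1 CPM against 386.9 and 380.5, a log2 fold change of -0.14 (SE 0.10, adjusted p = 0.522). XRCC5 and XRCC6 encode the subunits of Ku, which binds broken ends, and gave -0.15 (SE 0.11) and -0.16 (SE 0.09). Per kb of gene XRCC5 had the highest level of the list, with XRCC6 and EXO1 just below it at 4.45 CPM per kb in 52X WT, beside 0.226 for RAD51B, the lowest. LIG4 is the shortest gene here, at 10.9 kb. It overlapped between the groups and gave 0.06 (SE 0.15).

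Mismatch repair held both genes with the groups apart in the higher direction, as were 21.3% of tested protein-coding genes. MSH6 (chr2:47695530-47810063, plus strand), which recognizes base mismatches and small loops, read 131.3 and 129.0 CPM in 52X WT and 150.9 and 142.4 in 52X T4A, the highest log2 fold change of the list at 0.17 (SE 0.09, adjusted p = 0.371). The span listed for MSH6 is 4.25 times that of the RefSeq gene, so that reads upstream of the RefSeq start at chr2:47783145 count toward it. PMS2, of the complex that cuts the mismatched strand, read 40.1 and 38.3 CPM against 43.8 and 40.2, a log2 fold change of 0.10 (SE 0.10, adjusted p = 0.652). PMS2 has near-identical pseudogene copies and only uniquely aligned reads were counted, which makes its level uncertain. MSH3, which recognizes larger loops, lies on the other side at -0.11 (SE 0.10), with overlapping groups.

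Of the other genes, BLM, a helicase that dissolves recombination intermediates, read 146.4 and 155.4 CPM in 52X WT and 140.7 and 133.3 in 52X T4A (log2 fold change -0.14, SE 0.09, adjusted p = 0.463). ERCC6, of transcription-coupled repair, read 85.1 and 89.5 CPM against 82.2 and 73.6 (-0.16, SE 0.09, adjusted p = 0.421). In both, the groups did not overlap. The rest overlapped between the groups: the helicase WRN gave 0.03 (SE 0.10), the resection nuclease EXO1 0.06 (SE 0.10) and the end-joining polymerase POLQ -0.04 (SE 0.10). The damage-site proteins TP53BP1, RIF1 and MDC1, which oppose resection or mark chromatin at breaks, gave -0.09 (SE 0.10), 0.02 (SE 0.11) and -0.00 (SE 0.14).

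Gene length, as listed with the counts, ran from 10.9 kb for LIG4 to 910 kb for RAD51B with a median of 83.1 kb over the 38 genes, against 37.8 kb for tested protein-coding genes. Over the 36 genes, the log2 fold change was weakly negatively related to the log10 of length, with Spearman's rho -0.14 and Pearson's r -0.30. These are correlations across genes of the same 4 libraries and describe them only. They leaned on 1 gene: without RAD51B they were -0.06 and -0.10. With lengths from RefSeq in place of the listed ones they were -0.23 and -0.38. The relation also differed between the 52X T4A replicates, with rho of -0.03 in replicate 1 and -0.31 in replicate 2 against the mean of 52X WT. Fits without 52X T4A replicate 2 and without replicate 1 gave rho of -0.04 and -0.31 for the repair genes. Over all genes tested in those fits rho was 0.21 and -0.13, so this shift was not particular to the repair genes. With all 4 libraries, rho over all protein-coding genes was 0.01 and r was 0.11.

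By class of length, the 9 genes under 50 kb had a median log2 fold change of -0.03, the 15 genes of 50 to 100 kb -0.10 and the 12 genes over 100 kb -0.10. For protein-coding genes of the same classes the medians were -0.02, -0.04 and -0.09. Both 52X T4A libraries lay below both 52X WT libraries for 3, 9 and 5 of the repair genes in these classes. Among protein-coding genes the share was 22.8% under 50 kb, 32.4% from 50 to 100 kb and 43.0% above. In the longest class, 5 of 12 repair genes thus stood beside a protein-coding share of 43.0%, and their median was close to the protein-coding one. The classes go by listed length. The longest holds MSH6, of 115 kb as listed and 27.0 kb in RefSeq. It leaves out RIF1 (98.1 kb as listed, 125 kb in RefSeq) and ERCC6 (85.4 kb and 105 kb).

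**Figure D2:**
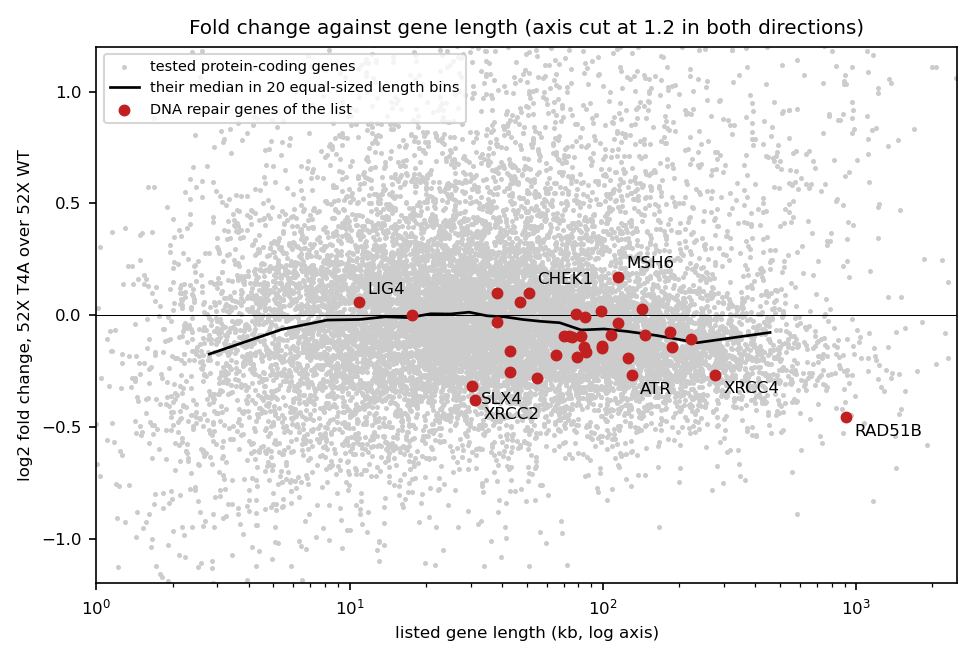
Log2 fold change of 52X T4A over 52X WT against listed gene length on a log axis, for the 36 tested DNA repair genes over the tested protein-coding genes, whose running median is the black line. RAD51B, the longest at 910 kb, has the lowest value at -0.46, while XRCC2, at 31.4 kb, has the next lowest at -0.38, and most of the other genes lie near 0 at every length.

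A wider list of 129 other genes of DNA repair, with none of the 38 among them was read for comparison. Of the 123 tested, 85 were below 0 and 38 above, with a median of -0.09. None passed the adjusted test of edgeR, with a lowest adjusted p of 0.173, and 12 passed that of DESeq2, beside 3.72% of all tested genes. At an unadjusted p below 0.05 in edgeR, 16 lay lower and 3 higher, beside 8.02% and 7.45% of all tested genes. The difference between this list and the 36 genes was not tested. Both 52X T4A libraries lay below both 52X WT libraries for 47 (38.2%) and above for 14 (11.4%). The shares were 24.7% and 24.8% of all tested genes, and 29.2% and 21.3% of protein-coding genes.

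The lowest values among those with no overlap came from genes whose 52X T4A replicates differed from each other. H2AX, the histone variant phosphorylated at breaks, had 1757 and 2296 counts in 52X WT and 291 and 1511 in 52X T4A (log2 fold change -0.89, SE 0.54, adjusted p = 0.449). PAXX, a factor of end joining, had 170 and 190 counts against 34 and 122 (-0.93, SE 0.46, adjusted p = 0.368), and MPG, a glycosylase of base excision repair, 237 and 252 against 78 and 168 (-0.71, SE 0.32, adjusted p = 0.329). In each, 52X T4A replicate 1 was the lowest library. Smaller falls with no overlap also came from genes whose 52X T4A replicates lay closer. PMS1 had 3676 and 4841 counts in 52X WT and 2490 and 2430 in 52X T4A (-0.50, SE 0.10, adjusted p = 0.173). RNF8 had 2347 and 2744 against 1539 and 1486 (-0.46, SE 0.09, adjusted p = 0.173). On the higher side, ALKBH2, which reverses alkylation of DNA, had 769 and 736 counts in 52X WT and 805 and 790 in 52X T4A, a log2 fold change of 0.37 (SE 0.13, adjusted p = 0.270). USP1, which removes ubiquitin from FANCD2, gave 0.29 (SE 0.10, adjusted p = 0.249), and RECQL, a helicase, 0.22 (SE 0.10, adjusted p = 0.333). Of the 6 genes of the wider list that failed the count filter, 5 (TREX1, SHLD3, ERCC5, SLX1A and BABAM1) were listed at 0 in all libraries, and other genes of their strand cover at least 99.5% of each.

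**Figure D3:**
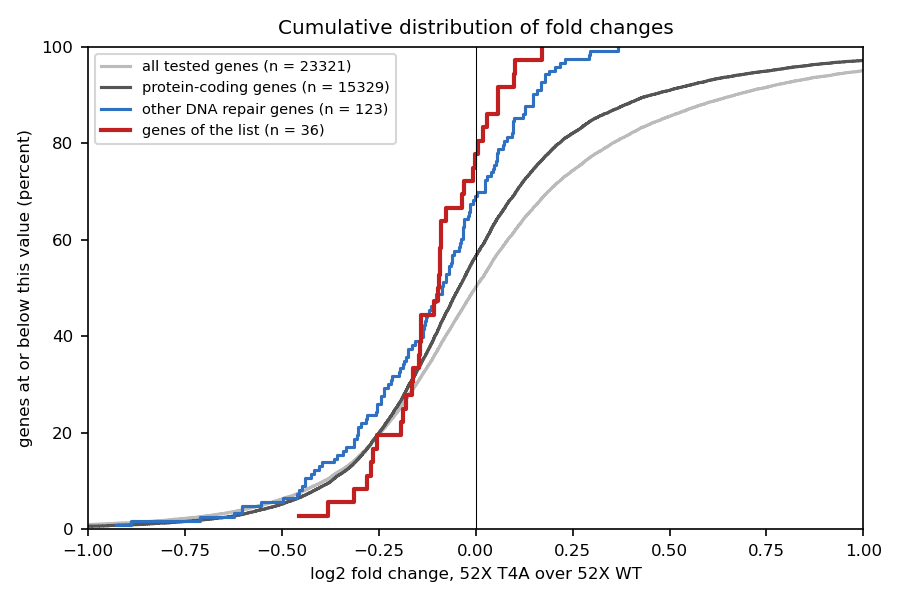
Cumulative share of genes by log2 fold change of 52X T4A over 52X WT, for the 36 tested DNA repair genes, the 123 other DNA repair genes tested, the protein-coding genes and all genes tested. The medians are -0.10, -0.09, -0.04 and -0.00076, and the curve of the 36 genes is the steepest, with all values between -0.46 and 0.17.

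The genes of the CTD kinases were also read. CDK12 had 9312 and 10601 counts in 52X WT and 8773 and 8419 in 52X T4A, a log2 fold change of 0.08 (SE 0.09, adjusted p = 0.707). CDK13, its close relative, gave -0.03 (SE 0.11, adjusted p = 0.907), and CCNK, the cyclin of both, 0.03 (SE 0.09, adjusted p = 0.887). These are levels of their nascent RNA and say nothing of kinase activity.

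Many of the repair genes start next to a gene of the other strand. Within 1000 bases of their starts, 24 of the 38 had 25 such partners, and in 22 pairs both genes were tested. Both were below 0 in 11 pairs and above 0 in 2. The repair gene was below and its partner above in 6, and the reverse held in 3. Across the 22 pairs Spearman's rho was -0.03 and Pearson's r -0.12, from values that share their libraries, and the median was -0.10 for the repair genes and -0.08 for the partners. None of the partners passed the adjusted test of edgeR, where 2 lay lower and 2 higher at an unadjusted p below 0.05, and DESeq2 called 2, TEX14 among them. Over all tested genes, 8.02% lay lower and 7.45% higher at that p, and DESeq2 called 3.72%. Of the 22, 8 lay lower and 5 higher with no overlap between the groups. These shares were 24.7% and 24.8% over all tested genes, and 29.2% and 21.3% over protein-coding genes.

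The widest gap within a pair was that of RAD51C and TEX14, a gene of germ cell bridges whose start lies 518 bases away. TEX14 had 10478 and 10922 counts in 52X WT and 14083 and 12364 in 52X T4A, a log2 fold change of 0.59 (SE 0.11, adjusted p = 0.165), beside -0.25 for RAD51C. PRKDC and MCM4, a subunit of the replicative helicase that starts 7 bases away, gave -0.14 and 0.20 (SE 0.09), and XRCC4 and TMEM167A -0.27 and 0.18 (SE 0.09). Others ran the same way. SLX4 and DNASE1 gave -0.32 and -0.30 (SE 0.12). ATM and NPAT, a factor of histone gene transcription, gave -0.09 and -0.11 (SE 0.10). The difference within a pair was not tested.

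**Figure D4:**
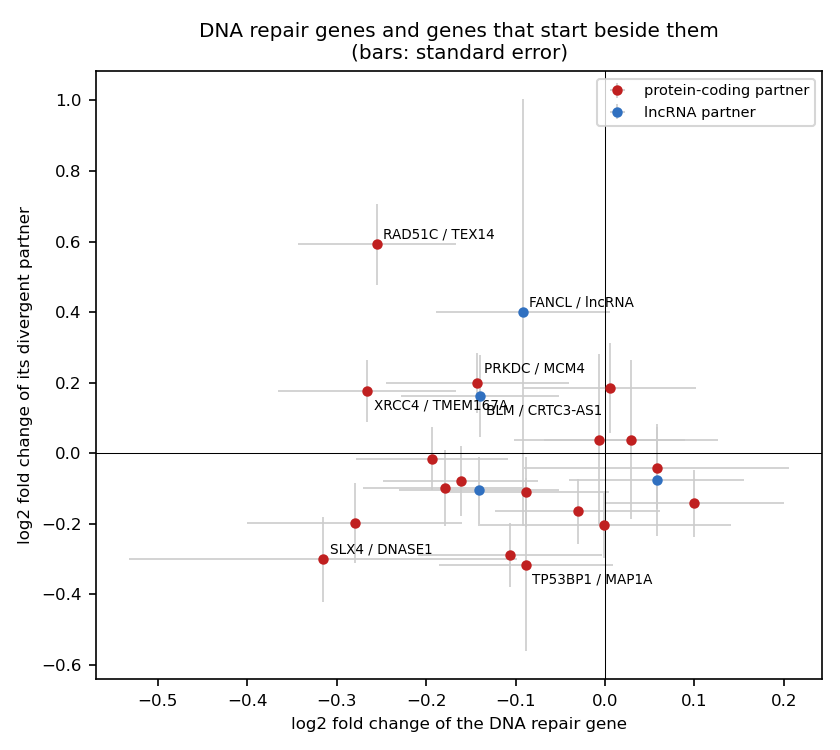
Log2 fold change of 52X T4A over 52X WT of each divergent partner against that of its DNA repair gene, for the 22 pairs in which both were tested, with bars of 1 SE. The pairs fall in all 4 quadrants, 11 of them with both values below 0, and RAD51C with TEX14 lies farthest from equal values.

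The promoters of these genes were searched for 3 motifs on both strands, in the RefSeq table of GRCh38.p14 that gives 250 bases before to 50 bases after each start. It held 50 promoters of 33 of the 38 genes. E2F factors drive genes of S phase, among them many of replication and repair, and their motif, taken as TTTCCCGC, TTTGGCGC or TTTCGCGC, was found for 6 of the 33 genes (18.2%) and in 12.0% of their promoters. Over all 27305 genes of the table the share was 3.30%, over its protein-coding genes 4.53%, and over all 35116 promoters 2.74%. The windows are shown because they hold both XRCC2, with the lowest fold change after RAD51B, and MSH6, with the highest, so that the same motif stands at both ends of the range. Each is read 5′ to 3′ on the strand of its gene, with the motif, or its reverse complement, in capitals.
XRCC2, chr7:152676105-152676128, minus strand: cgttggtgGCGGGAAAgttgagtc
FANCD2, chr3:10026427-10026450, plus strand: cgggcctgGCGGGAAAgtcgaaaa
MSH3, chr5:80654537-80654560, plus strand: cggtcaagTTTGGCGCgaaattgt
XRCC6, chr22:41621329-41621344, plus strand: gcttccctGCGCCAAA
EXO1, chr1:241848200-241848223, plus strand: ggtcagccTTTCGCGCgctgtgta
MSH6, chr2:47783140-47783163, plus strand: cccccagaTTTCCCGCcagcagga

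The first capital lies 21 bases past the start of XRCC2, 3 past that of MSH6 and 4 past that of EXO1, and 2 before that of FANCD2 and 107 before that of MSH3. The motif of XRCC6 lies at the end of the promoter window, which cuts its flank, and that of MSH3 overlaps a second match on the other strand. The 6 genes with an E2F match had a median log2 fold change of -0.10, and the 25 tested genes of the table without one -0.09.

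The ETS motif CCGGAAGT was found for 7 of the 33 genes (21.2%; MRE11, RAD50, BRCA2, PALB2, FANCD2, POLQ and LIG4), against 4.95% of all genes and 6.97% of protein-coding ones. It was met in 14.0% of the promoters of the repair genes and in 4.14% of all promoters. BRCA2 and PALB2, whose proteins act in a single complex and whose groups overlapped, show it as follows, as its reverse complement in capitals.
BRCA2, chr13:32315411-32315434, plus strand: caggcctgACTTCCGGgtggtgcg
PALB2, chr16:23641456-23641479, minus strand: ttccggctACTTCCGGccgctcct

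The 6 tested genes with an ETS match had a median log2 fold change of -0.02 and the 25 without one -0.14. CCAAT was found for 18 of the 33 (54.5%), against 39.7% of all genes and 42.1% of protein-coding ones, and in 46.0% of promoters against 34.6%. The median was -0.08 for the 18 tested genes with it and -0.14 for the 13 without. A match describes letters in these windows and is no evidence of binding. The differences between these medians were not tested.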

How the data were processed

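Nascent RNA of 4 libraries was measured by TT-seq, 2 of 52X WT and 2 of 52X T4A. The authors deposited raw counts of uniquely aligned reads per gene, and per the labels the reads were trimmed with cutadapt 4.6 and aligned with STAR 2.7.11b, both named in the submitters' processing notes with the build GRCh38. Counter settings are not given in the sources used here. The listed length equals the span of each gene, so introns were counted. The 38 genes and all lists were chosen with earlier results of these data known. The annotation at hand (GRCh37) gave only names and types by identifier (58742 of 60708 genes), and 99.9% of 19176 protein-coding genes overlapped their GRCh38 position.

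Counts were scaled by TMM, filtered by filterByExpr and tested with edgeR 4.0.16 in R 4.3.3 (quasi-likelihood test, 52X T4A against 52X WT, Benjamini-Hochberg over 23321 genes, called at 0.05). An exact permutation test of 2 against 2 cannot go below p = 0.333, so groups that do not overlap are counted only. The test script was tested on simulated data. Named were all 38 genes, CDK12, CDK13, CCNK, POLR2A, divergent partners, and the 3 largest rises and 3 largest falls among other repair genes with no overlap and a mean count of at least 50. PMS1 and RNF8 were added after seeing the data. Of the divergent partners, 1 is not reported by name here. Same-numbered libraries did not deviate together (correlation 0.00498), so the numbers were not taken as pairs. Alternatives were DESeq2 1.42.0, library size alone, protein-coding genes only, no count filter, a minimum of 10 counts in each library, a replicate block, removal of the length trend, overlapped members left out, an added fold threshold of 1.5, and each library left out. RefSeq lengths and leaving out RAD51B were added after seeing the data.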

Additional observations from a re-analysis of the deposited data

How the results depend on the processing

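Counts and medians of the 38 given here cover only those tested. These were 38 without a count filter, 36 or 37 with a library left out, and 36 in the other fits. With no gene called among the 38 or the other repair genes in the reported fit, DESeq2 called 2 (XRCC2, adjusted p = 0.00963, and RAD51B, adjusted p = 6.4e-05) and 12, where it called 867 genes (3.72%) in all. Without a count filter, edgeR's quasi-likelihood test called 1 (RAD51B, adjusted p = 0.0318) and 2, where it called 150 genes (0.382%) in all. That fit also took in RAD50 and RAD51D. In it, 1 of the 38 was higher without overlap, and the median of the other repair genes was -0.109. Library size alone put 5 of the 38 higher without overlap. The share of all genes higher without overlap is not given for either setting, so these counts were not compared with it. Library size alone put the medians at -0.0458 for the 38 and -0.0329 for the others, and protein-coding genes only put them at -0.0631 and -0.0537. The median over all genes tested was 0.0559 without a count filter, 0.0499 with library size alone and -0.0102 with protein-coding genes only. Less that value, the median of the 38 was -0.176, -0.0956 and -0.0529 in these settings, beside -0.0953 in the reported fit. With a replicate block, 0 of the 38 and 5 of the other repair genes (PMS1, RECQL4, PAXX, H2AX and FAAP100) were called. That fit called 533 genes (2.29%) in all, and its median of the 38 was -0.0961. Leaving out 1 library at a time gave 0 to 3 genes called of the 38 and 0 to 20 of the other repair genes. Both counts were highest without 52X T4A replicate 2, where 3466 genes (13.8%) were called. It gave 23 to 30 of the 38 lower and 2 to 10 higher without overlap, where 1 library against 2 put 34.5% to 39.8% of all genes lower and 34.4% to 41.1% higher. It gave medians of -0.170 (without 52X WT replicate 1) to -0.0833 for the 38 and -0.115 to -0.0653 for the others. The length correlation was -0.307 to -0.0370 for the 38, beside -0.129 to 0.210 over all genes tested. An arm of 1 library was assumed to vary like the other arm. Apart from SLX4, at -0.32 in the reported fit, the signs that turned were those of genes between -0.08 and 0.06. MRE11 was -0.00818 with DESeq2 and -0.0191 without a filter, and RIF1 -0.00566 without a filter. With library size alone BRCA2 was 0.0467, PALB2 0.0207, POLQ 0.0144 and MDC1 0.0536. With at least 10 counts BRCA2 was 0.00244 and MDC1 0.00792, with protein-coding genes only BRCA2 was 0.0271, PALB2 0.00274 and MDC1 0.0321, and with the length trend removed BRCA2 was 0.000635. When a library was left out, values ran from -0.106 to 0.0699 for BRCA2, -0.187 to 0.00893 for BRIP1, -0.0134 to 0.107 for EXO1, -0.121 to 0.229 for LIG4, -0.197 to 0.168 for MDC1, -0.0732 to 0.0580 for MRE11, -0.104 to 0.0150 for PALB2, -0.107 to 0.0104 for POLQ, -0.0751 to 0.0852 for RIF1, -0.729 to 0.00458 for SLX4 and -0.0626 to 0.0938 for WRN. The cause of these differences was not tested. Between replicates, the median of the 38 had an SD of 0.0617.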
